A study of Mus musculus with 4 samples.

Results

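The smooth muscle cells of the mouse aortic root were divided by the lineage reporter that each cell made, and 570 eGFP cells were compared with 1900 tdTomato cells of the same library. These 2470 cells were chosen from 4040 root barcodes, out of 29930 in the whole series. A barcode was kept when it had at least 1000 detected genes, at most 10% of its UMIs (unique molecular identifiers, counted cDNA molecules) from mitochondrial genes, at least 10 UMIs of the smooth muscle myosin gene Myh11, at most 5 UMIs of the macrophage genes C1qa, C1qb and Lyz2 together and at most 1 UMI of the endothelial genes Cdh5 and Emcn together. Those thresholds left 2741 root cells, where the submitters state 1841 cells after their own filter of the same 4040. An eGFP cell then had at least 8 eGFP and at most 1 tdTomato UMIs, and a tdTomato cell had at least 1 tdTomato and at most 2 eGFP UMIs. The reporters therefore chose the groups and are described without being counted as results: eGFP stood at 3739 CPM (the UMIs of the gene, scaled to the group's total and given per 1000000 UMIs) in eGFP cells and 24.4 CPM in tdTomato cells, and tdTomato at 8.65 and 432 CPM.

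The mice were 12 weeks old and carried Wnt1-Cre2, a transgene that expresses Cre recombinase under Wnt1 control in the neural crest. All groups shared this transgene, and other alleles, the sexes and the number of animals are not given in the sources used here. Aortic segments were digested in the cold, and viable single cells bearing ITGA8, an integrin subunit of vascular smooth muscle, were sorted and run on a droplet platform that counts the 3′ ends of transcripts. The series holds 1 library of the root with both colours, 1 of GFP cells and 1 of RFP (tdTomato) cells of the ascending aorta, and 1 of GFP cells of the arch. By the same thresholds the ascending libraries gave 6136 GFP and 3578 RFP cells, and the arch library gave 7346 GFP cells. With 1 library in each group there was no replicate, so no test was run, and every interval given here is a 95% interval for counting error only.

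In reporter lines of this design, a cell makes the red protein tdTomato until Cre removes its cassette, after which the cell and its descendants make eGFP. The smooth muscle of the proximal aorta comes from 2 embryonic sources, the cardiac neural crest and the second heart field, and the root is the segment where they meet. Red cells are all cells without recombination, whatever their origin, so the tdTomato group is not defined by a second heart field marker.

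The root groups were close in depth and quality. Their summed depth was 7631903 UMIs for eGFP and 26686708 UMIs for tdTomato cells, with medians of 12848 and 13755 UMIs per cell. Median mitochondrial shares were 5.21% and 4.92%. Cells of both sexes were pooled: female cells, told by Xist against 4 Y-linked genes, made up 88.1% of the sexed eGFP cells (85.1 to 90.7%) and 88.2% of the sexed tdTomato cells (86.6 to 89.7%). The 12 smooth muscle markers summed to 59645 and 57808 CPM. They include Myh11, a threshold of the rule, and Itga8, which encodes the sorted integrin subunit, so this sum was partly set by selection. Acta2, which the rule did not use, was at 20403 and 19057 CPM. Macrophage markers, which include the C1qa, C1qb and Lyz2 limited by the rule, summed to 17.7 and 17.4 CPM. Schwann cell and glial markers summed to 8.91 and 7.72 CPM, with Sox10, Cdh19, Ngfr and Foxd3 at 0 in both groups. The fibroblast markers summed to 566 and 811 CPM, 11 of 12 having UMIs in each group (Dpt was at 0 in eGFP cells and Ly6a in tdTomato cells), and the cardiomyocyte markers, which include Tnnt2, to 468 and 1212 CPM. The root library shared 17 barcodes with the ascending GFP library, 9 with the ascending RFP library and 13 with the arch library.

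Few genes differed by 2-fold between the root groups. A level of 20 CPM in 1 of the groups or both was reached by 5750 genes, of which 5 exceeded a 2-fold excess in eGFP cells (0.0870%) and 16 a 2-fold deficit (0.278%). The median log2 ratio over the same genes was 0.02, and the 1st and 99th percentiles were -0.48 and 0.41 on the log2 scale. The higher genes were Ccn5, Krt18, Ccdc3, Sfrp1 and Thbs1. Those named here among the lower genes were Psd, Des, Hand2os1, Lum, Tnnt2, Rgs5, Dcn, Gm34030, Gpc3, Bmp3, Lpl, Cxcl12 and Abi3bp. The other 3, named after their values were seen, were Papss2 (9.70 against 20.4 CPM), Cd34 (18.1 against 37.8 CPM) and Arhgdib (25.8 against 51.8 CPM).

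Psd, Des and Tnnt2 were far lower in eGFP cells. Desmin (Des), the intermediate filament protein of muscle, stood at 34.2 CPM in eGFP cells (30.2 to 38.6, 261 UMIs) and 298 CPM in tdTomato cells (291 to 305, 7951 UMIs). Its level was thus 8.71-fold lower in eGFP cells (log2 ratio -3.12, -3.31 to -2.94). Cardiac troponin T (Tnnt2), the tropomyosin-binding subunit of the troponin complex, was at 296 CPM in eGFP cells (284 to 308) against 1022 CPM in tdTomato cells (1010 to 1034). That was 3.45-fold lower, a log2 ratio of -1.79 (-1.85 to -1.73). Psd, which encodes a guanine nucleotide exchange factor for ARF6, was at 6.68 CPM (4.98 to 8.79, 51 UMIs) against 77.6 CPM (74.3 to 81.1, 2072 UMIs). Its level was 11.6-fold lower in eGFP cells (log2 ratio -3.54, -3.97 to -3.14). Unc45b, a myosin chaperone of striated muscle, was below 20 CPM in both groups, at 0.52 CPM (4 UMIs) and 5.81 CPM (155 UMIs).

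Few of the other contractile genes differed. Of 23 contractile genes measured at 5 CPM or more, 1 was higher (Actg2) and 1 lower (Des) by the rule used for gene lists, which asks for a ratio of at least 1.41-fold, at least 5 CPM in either group and an interval that does not reach 0. Over all 9695 genes measured at 5 CPM that rule called 1.71% higher and 1.82% lower in eGFP cells, and the list's median log2 ratio was 0.03 beside 0.02 for all genes. Myh11, the smooth muscle myosin heavy chain and itself part of the cell filter, was at 5153 CPM in eGFP and 5167 CPM in tdTomato cells. Tagln (transgelin) was at 13795 and 13581 CPM. Actg2, the enteric smooth muscle actin, was at 263 CPM in eGFP cells (251 to 274) and 180 CPM in tdTomato cells (175 to 185), a log2 ratio of 0.54; reads of near-identical actin genes may be split between them. Of 17 cardiac sarcomere genes only 4 were measured, with Tnnt1 higher (5.24 against 3.22 CPM) and Tnnt2 lower.

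**Figure D1:**
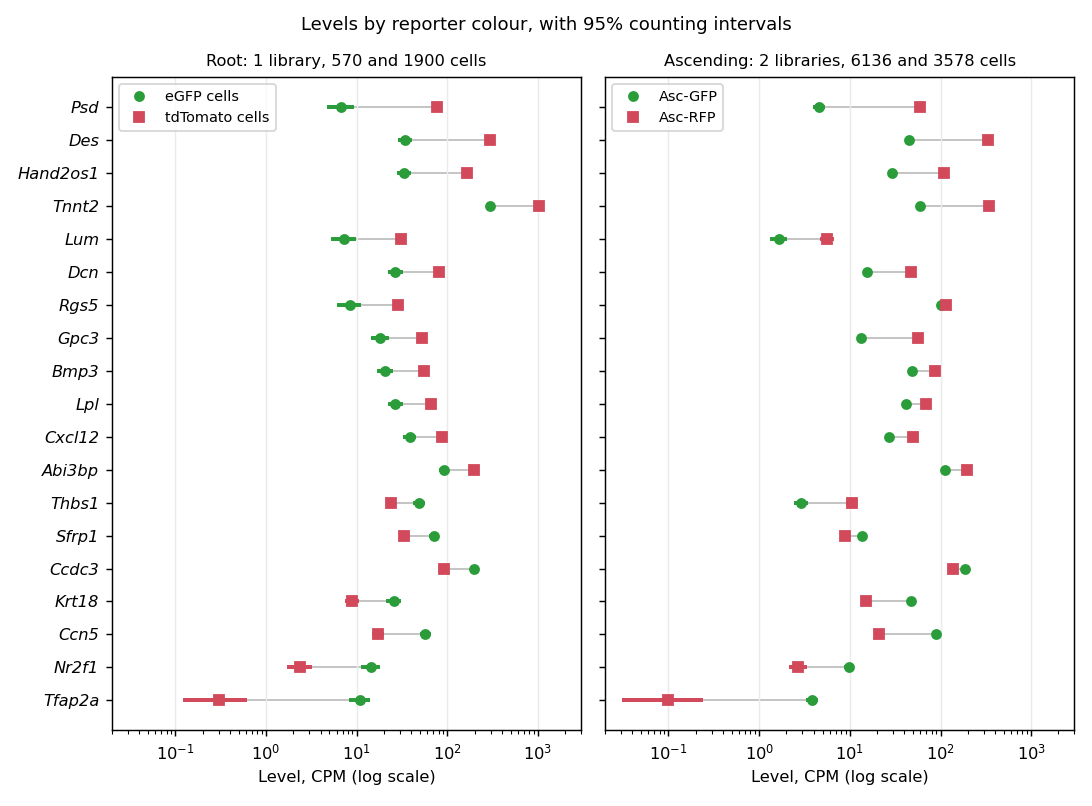
Levels of 19 genes by reporter colour in CPM on a log axis, in the root on the left and the ascending aorta on the right; bars are 95% counting intervals and are often narrower than the symbol. In the root, Psd, Des, Hand2os1 and Tnnt2 sit far to the right in tdTomato cells, and Tfap2a and Nr2f1 far to the right in eGFP cells.

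The difference in these genes was visible in single cells as well as in sums. No Des UMI was found in 81.6% of eGFP cells and 49.9% of tdTomato cells, no Tnnt2 UMI in 42.6% and 24.1%, and no Psd UMI in 91.8% and 54.2%. With every cell thinned to 5000 UMIs (5 eGFP and 39 tdTomato cells were too shallow), a Des UMI was present in 9.38% of eGFP and 38.5% of tdTomato cells. For Psd the thinned shares were 3.54% and 26.0%, and for Tnnt2 40.9% and 62.4%. The background was read from 71 macrophage-like barcodes of the same library, which should lack these genes and had a median of 8945 UMIs. Of these, 24 were too shallow, and the other 47 gave thinned shares of 6.38% for Des (3 barcodes, 1.34 to 17.5%), 2.13% for Psd (1 barcode, 0.0539 to 11.3%) and 6.38% for Tnnt2 (3 barcodes). The unthinned shares in all 71 were 25.4%, 2.82% and 39.4%. The thinned eGFP shares of Des and Psd lay inside the intervals of that background and the tdTomato shares above them. Levels of Tnnt2 also varied widely within each group: the median tdTomato cell had 277 CPM and the cell at the 95th percentile had 4571 CPM, against 70.8 and 1552 CPM in eGFP cells, and 24.7% of eGFP cells exceeded the tdTomato median.

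**Figure D2:**
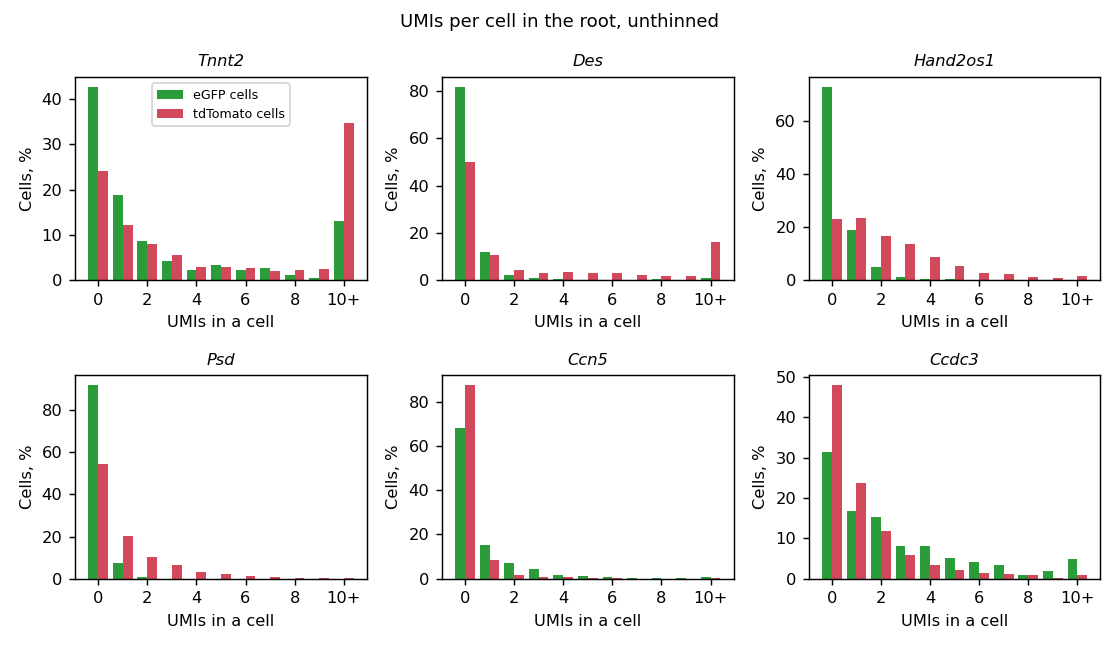
Shares of root cells by the number of UMIs of each gene in the cell, without thinning, for the 570 eGFP and 1900 tdTomato cells. A larger share of eGFP than of tdTomato cells is at 0 UMIs for Tnnt2, Des, Hand2os1 and Psd, and a larger share of tdTomato cells for Ccn5 and Ccdc3; for Psd (91.8% and 54.2%) and Ccn5 (68.2% and 87.4%) most cells of both colours are at 0.

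Regulators tied to the embryonic origin of the cells differed in both directions. Tfap2a, the AP-2 alpha factor of early neural crest, was at 10.9 CPM in eGFP cells (8.66 to 13.5, 83 UMIs) and 0.30 CPM in tdTomato cells (0.13 to 0.59, 8 UMIs). The log2 ratio was 5.18 (4.14 to 6.44), and 11.8% of eGFP cells against 0.368% of tdTomato cells had a UMI before thinning. None of the 71 macrophage-like cells had one, with an interval of up to 5.06%. Nr2f1 (COUP-TFI), an orphan nuclear receptor, was at 14.3 CPM (11.7 to 17.2) against 2.36 CPM (1.81 to 3.02), 6.05-fold higher in eGFP cells. In the opposite direction, the long noncoding gene Hand2os1, which overlaps the heart field factor gene Hand2, was at 33.4 CPM in eGFP cells (29.4 to 37.8) and 166 CPM in tdTomato cells (161 to 171). That was 4.97-fold lower, with no UMI in 72.8% of eGFP and 22.9% of tdTomato cells. Hand2 itself, read from the opposite strand, was at 98.5 and 135 CPM, a log2 ratio of -0.46; the sources used here do not say whether the authors' counting used strand. Gm34030, another noncoding gene 7.46 kb from Hand2os1 on chromosome 8, was at 11.9 and 35.3 CPM.

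Among 9 measured neural crest regulators, 2 were higher in eGFP cells (Tfap2a and Prrx1) and 1 lower (Sox9). Prrx1, a mesenchymal homeobox gene, was at 79.7 CPM in eGFP and 56.1 CPM in tdTomato cells. Sox9, the chondrogenic and crest factor, was at 2.49 and 6.67 CPM. Twist1 (53.9 and 55.4 CPM), Snai2 (10.1 and 11.5 CPM) and Msx1 (16.2 and 13.7 CPM) had ratios whose intervals held 0. Of 16 measured heart and second heart field regulators, 2 were higher (Tbx18 and Nr2f1) and 3 lower (Isl1, Hand2os1 and Tcf21). Isl1, the LIM factor of second heart field progenitors, was low in both groups, at 2.23 CPM (17 UMIs) and 6.74 CPM (180 UMIs). Tbx18, a T-box factor of the epicardium and venous pole, was at 62.8 and 38.0 CPM. Gata4 was at 15.6 and 13.3 CPM and Gata6 at 110 and 119 CPM, with intervals of the ratio that held 0.

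Of the HOX genes, which set positional identity along the body axis, 4 were measured and 3 were lower in eGFP cells. Hoxb4 was at 2.49 CPM in eGFP cells (19 UMIs) and 11.9 CPM in tdTomato cells (317 UMIs). Hoxb2 was at 9.57 and 18.6 CPM, and Hoxb3 at 3.14 and 5.88 CPM. Hoxa3 was at 21.1 and 21.5 CPM. The 3 lower genes lie side by side on chromosome 11, with gaps of 1.69 kb between Hoxb4 and Hoxb3 and 2.60 kb between Hoxb3 and Hoxb2.

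The genes described so far lie, in mm10 with GENCODE M21 annotation, at chr19:46312087-46327156 (Psd), chr1:75360329-75368579 (Des), chr1:135836354-135852260 (Tnnt2), chr8:57281117-57324233 (Hand2os1), chr13:40715302-40738376 (Tfap2a) and chr13:78188973-78199757 (Nr2f1). The promoter windows of 4 of these genes are given to show the regulatory sequence next to genes with large differences, 3 lower and 1 higher in eGFP cells. Each runs from 250 bases before to 50 bases after the RefSeq start, 5′ to 3′ on the gene's strand, in the mouse build GRCm38.p6. Capitals mark 4 searched motifs on either strand: the E-box CANNTG of basic helix-loop-helix factors, the AP-2 motif GCCNNNGGC, the M-CAT motif CATTCC of TEAD factors and the GATA motif AGATAA. The windows are chr19:46327107-46327406 on the minus strand, chr1:75360042-75360341 and chr1:135836084-135836383 on the plus strand, and chr13:78198824-78199123 on the minus strand. The RefSeq start of Nr2f1 lies 884 bases from the gene start in GENCODE.
Psd: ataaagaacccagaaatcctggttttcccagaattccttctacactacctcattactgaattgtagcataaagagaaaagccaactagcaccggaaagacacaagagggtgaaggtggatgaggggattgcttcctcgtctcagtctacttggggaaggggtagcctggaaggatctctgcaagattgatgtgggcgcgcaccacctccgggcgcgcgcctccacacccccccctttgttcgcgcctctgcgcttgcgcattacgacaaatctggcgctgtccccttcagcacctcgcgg
Des: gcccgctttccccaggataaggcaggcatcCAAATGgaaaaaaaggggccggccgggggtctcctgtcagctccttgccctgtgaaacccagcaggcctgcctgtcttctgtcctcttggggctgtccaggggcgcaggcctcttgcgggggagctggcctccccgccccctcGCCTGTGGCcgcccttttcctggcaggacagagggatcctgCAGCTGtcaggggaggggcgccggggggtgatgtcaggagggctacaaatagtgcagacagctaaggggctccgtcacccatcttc
Tnnt2: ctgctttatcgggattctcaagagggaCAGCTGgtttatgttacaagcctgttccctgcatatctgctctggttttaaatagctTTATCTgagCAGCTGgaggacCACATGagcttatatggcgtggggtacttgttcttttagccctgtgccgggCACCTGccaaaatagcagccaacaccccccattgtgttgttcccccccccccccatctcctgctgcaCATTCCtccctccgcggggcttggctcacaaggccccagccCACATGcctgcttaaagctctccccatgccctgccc
Nr2f1: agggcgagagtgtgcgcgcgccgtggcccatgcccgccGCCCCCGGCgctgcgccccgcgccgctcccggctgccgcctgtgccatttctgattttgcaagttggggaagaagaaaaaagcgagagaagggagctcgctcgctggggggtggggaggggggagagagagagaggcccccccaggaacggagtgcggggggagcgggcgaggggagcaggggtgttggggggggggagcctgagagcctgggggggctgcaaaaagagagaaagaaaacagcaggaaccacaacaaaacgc
The Tnnt2 window held 5 E-boxes, 1 M-CAT and 1 GATA motif, the Des window 2 E-boxes and 1 AP-2 motif, the Nr2f1 window 1 AP-2 motif and the Psd window none of the 4. Among 32851 promoter windows of the same length, 72.3% held an E-box, 16.6% the AP-2, 14.7% the M-CAT and 11.2% the GATA motif. These matches describe letters in a window and not bound sites.

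Among genes of secreted matrix proteins, Ccn5, Thbs1, Mia and Comp were higher in eGFP cells. Ccn5, a matricellular CCN protein made by smooth muscle, was at 57.3 CPM in eGFP cells (52.0 to 62.9, 437 UMIs) and 17.2 CPM in tdTomato cells (15.6 to 18.8, 458 UMIs), 3.34-fold higher (log2 ratio 1.74, 1.55 to 1.93). Thinned shares of cells with a Ccn5 UMI were 17.9% and 6.29%, against 0 of 47 macrophage-like cells, with an interval of up to 7.55%. Thbs1 (thrombospondin 1) was at 48.5 and 23.9 CPM. These were the 2 higher genes of 14 measured matricellular genes, none of which was lower. Mia, a small secreted protein of cartilage and melanoma, was at 14 CPM against 4.42 CPM and Comp, a pentameric cartilage matrix protein, at 20.2 CPM against 10.3 CPM. They were the 2 higher of 7 measured cartilage-type genes, with Sox9 lower. Both depended on the expression clusters that the root cells were divided into. The log2 ratio of Mia was 1.66 in the sums and 0.47 averaged within clusters. It was -3.33 in cluster 5, where eGFP cells had no Mia UMI and an added 0.5 UMI set the size, and positive in the other clusters compared. The log2 ratio of Comp was 0.96 in the sums and 0.18 without clusters 2, 4 and 5. Comp was a leading gene of cluster 4, so leaving that cluster out removed cells high in it by construction.

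The collagen-binding proteoglycans lumican and decorin were lower in eGFP cells, and 6 of the 8 measured small leucine-rich proteoglycans did not pass the list rule. Lumican (Lum) was at 7.21 CPM in eGFP cells (5.43 to 9.38, 55 UMIs) and 30.5 CPM in tdTomato cells (28.4 to 32.6, 813 UMIs), 4.23-fold lower. Decorin (Dcn), whose gene lies 47.0 kb from Lum on chromosome 10, was at 26.7 CPM (23.2 to 30.7) against 80.4 CPM (77.0 to 83.9). The median log2 ratio of the 8 proteoglycan genes was -0.16, and none was higher. Both are fibroblast markers as well, and the summed fibroblast markers, which include both, moved with them (566 against 811 CPM); the part of such cells in this difference was not tested. Lum and Dcn depended on the threshold for a tdTomato cell. Lum was at 83.7 CPM in the 205 cells with exactly 1 tdTomato UMI and at 25 CPM in the 1695 cells with more. Dcn was at 155 and 72.7 CPM in these cells. On the eGFP side, the 12 cells just inside the threshold, with 8 to 15 eGFP UMIs, had 15 Lum and 23 Dcn UMIs. The 11 cells just outside it had no Lum UMI and 2 Dcn UMIs. In male cells the log2 ratio of Dcn was -0.35 (-0.96 to 0.21).

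The fibrillar collagen genes differed little, with Col1a1 at 325 and 358 CPM and Col3a1 at 1265 and 1275 CPM. Of 19 measured collagens none was higher and 2 were lower, Col14a1 (162 against 266 CPM) and Col16a1 (10.7 against 18.3 CPM). Of 18 measured elastic fibre genes 1 was higher (Loxl3) and 4 lower (Fbln1, Fbln2, Mfap4 and Loxl2). Fbln1, which encodes the matrix glycoprotein fibulin 1, was at 2.49 CPM in eGFP cells and 14.8 CPM in tdTomato cells. In male cells it was at 8.80 CPM (7 UMIs) and 9.49 CPM (29 UMIs), a log2 ratio of -0.11 (-1.54 to 1.11). Within the expression clusters compared, its log2 ratio lay between -2.90 and 0.04. Elastin (Eln) was at 1396 CPM (1369 to 1423) and 1201 CPM (1188 to 1214), a log2 ratio of 0.22. Abi3bp, an extracellular matrix protein, was at 91.6 against 199 CPM, 2.18-fold lower in eGFP cells. Gpc3, a membrane-anchored heparan sulfate proteoglycan, was at 18.2 CPM (15.3 to 21.5) against 52.1 CPM (49.4 to 54.9).

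Sfrp1, Ccdc3 and Krt18 were higher in eGFP cells, and Bmp3, Cxcl12, Lpl and Rgs5 were lower. Sfrp1, a secreted Wnt antagonist, was at 71.4 CPM in eGFP cells (65.5 to 77.7) and 33.6 CPM in tdTomato cells (31.5 to 35.9), 2.12-fold higher. The ligand gene Wnt16 was at 209 and 134 CPM. With these 2 higher and 3 lower (Wnt5a, Frzb and Nkd2), the 16 measured Wnt genes had differences in both directions. Ccdc3, which encodes a secreted coiled-coil protein, was at 199 CPM (189 to 209) against 92.2 CPM (88.6 to 95.9). Krt18, a keratin of simple epithelia, was at 25.6 CPM (22.1 to 29.4) against 9.0 CPM (7.89 to 10.2), 2.84-fold higher, and was the 1 higher of 6 measured intermediate filament and keratin genes, with Des lower. Bmp3, a BMP family ligand that antagonises osteogenic signals, was at 20.6 against 54.7 CPM and the chemokine Cxcl12 at 38.5 against 88.2 CPM, and Lpl (lipoprotein lipase) at 26.7 against 65.7 CPM. Of 13 measured lipid handling genes 1 was higher (Fabp5, a log2 ratio of 0.50), 1 lower (Lpl) and 11 within the limits. Rgs5, a regulator of G protein signalling in mural cells, was at 8.39 CPM (6.46 to 10.7) against 28.5 CPM (26.5 to 30.6). Kcnj8 and Abcc9, which encode the pore and the sulfonylurea receptor of the vascular ATP-sensitive potassium channel and lie 16.2 kb apart, were at 21.5 against 14.1 CPM and 58.8 against 34.7 CPM.

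The list rule called none of 13 measured BMP genes, 7 Notch genes, 13 integrins, 24 oxidative phosphorylation genes and 24 heritable aortic disease genes. The BMP list did not include Bmp3, which passed the rule as lower in eGFP cells (20.6 against 54.7 CPM). At the shares of all genes called, 1.71% higher and 1.82% lower, gene lists of this size would hold few called genes or none. Of 27 measured TGF-beta genes 1 was higher (Acvr1b) and 1 lower (Fst), and the list's median log2 ratio was -0.01. Notch3 was at 47.6 and 46.5 CPM in eGFP and tdTomato cells.

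The reporter contrast was then set beside that of the ascending aorta, where GFP and RFP cells came from separate sorted libraries, so colour, sort and library cannot be told apart there. Female cells made up 69.8% of the sexed GFP cells and 54.5% of the sexed RFP cells. In the ascending aorta 5705 genes reached 20 CPM, with 12 past 2-fold in favour of GFP cells (0.210%) and 17 in favour of RFP cells (0.298%). Female cells alone gave 11 and 16 such genes, and male cells alone 17 and 23. The list rule called 1.81% of 9656 genes higher and 1.46% lower there. It called none of 23 contractile genes higher and 2 lower (Des and Synm), and none of 6 HOX genes in either direction. There were 9 genes that passed in both segments and all in the same direction, which is 42.9% of the 21 root genes and 31.0% of the 29 ascending genes. Of the 21 root genes 19 had the same sign in the ascending aorta. Across 5534 genes with 20 CPM in both segments the log2 ratios had a Pearson r of 0.53 and a Spearman rho of 0.24, given as a description since genes are not independent replicates. Ratios had the same sign for 59.3% of those genes.

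Psd, Des, Tnnt2, Hand2os1, Ccn5, Krt18 and Tfap2a had the same direction in the ascending aorta as in the root. Fst had the opposite direction, and Mmp3 was nearly level in the ascending sums. Psd was at 4.63 CPM in ascending GFP cells and 59.5 CPM in RFP cells (log2 ratio -3.69), and Des at 44.8 and 334 CPM (-2.90). Tnnt2 was lower overall there, at 58.8 and 338 CPM, with a larger difference (-2.52). Hand2os1 was at 29.2 and 108 CPM (-1.89). Ccn5 was at 89.8 and 21.1 CPM (2.09), Krt18 at 46.7 and 15.1 CPM (1.63), and Tfap2a at 3.83 and 0.10 CPM (5.28). Fst (follistatin, an activin antagonist) was at 3.54 and 12.1 CPM in the root (log2 ratio -1.78, -2.40 to -1.21) but at 7.91 and 4.09 CPM in ascending GFP and RFP cells (0.95, 0.72 to 1.18). Mmp3, a matrix metalloproteinase, was at 5.37 and 18.7 CPM in the root (-1.80). In the ascending aorta it was at 4.16 and 3.90 CPM, and the ratio of 0.09 had an interval from -0.16 to 0.35. By sex, the ascending Mmp3 ratio was -0.13 in female cells (-0.44 to 0.18) and -0.66 in male cells (-1.34 to 0.01). The GFP cells of the arch, which have no red counterpart in the series, were at 4.63 CPM of Psd, 27.3 CPM of Des, 19.4 CPM of Tnnt2 and 24.9 CPM of Hand2os1, and at 72.1 CPM of Ccn5.

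Other ratios differed between the segments. Among the 5534 genes, 3 had a log2 ratio at least 1 higher in the root than in the ascending aorta with an interval beyond 0 (0.0542%), and 12 at least 1 lower (0.217%). The 3 were Igfbp2, Palld and Ankrd1. Igfbp2, an insulin-like growth factor binding protein, was at 62.5 and 48.5 CPM in root eGFP and tdTomato cells but at 29.0 and 62.0 CPM in ascending GFP and RFP cells. Rgs5 had the most negative difference (-1.58, -1.95 to -1.21), and its ascending levels were 100 CPM in GFP and 114 CPM in RFP cells. The ascending Rgs5 ratio differed by sex, at 0.08 in female cells (0.02 to 0.15) and -1.06 in male cells (-1.17 to -0.96). Acan (aggrecan) was at 44.2 and 35.6 CPM in the root and 44.2 and 14.5 CPM in the ascending aorta. Epas1, which encodes the hypoxia factor HIF-2 alpha, was at 156 and 130 CPM in the root and 98.3 and 35.7 CPM in the ascending aorta. Below 20 CPM in the ascending aorta, Thbs1 was reversed, at 2.89 CPM in GFP and 10.4 CPM in RFP cells. The HOX genes were nearly level there, Hoxb2 at 31.1 and 31.2 CPM and Hoxb4 at 14.8 and 18.1 CPM.

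**Figure D3:**
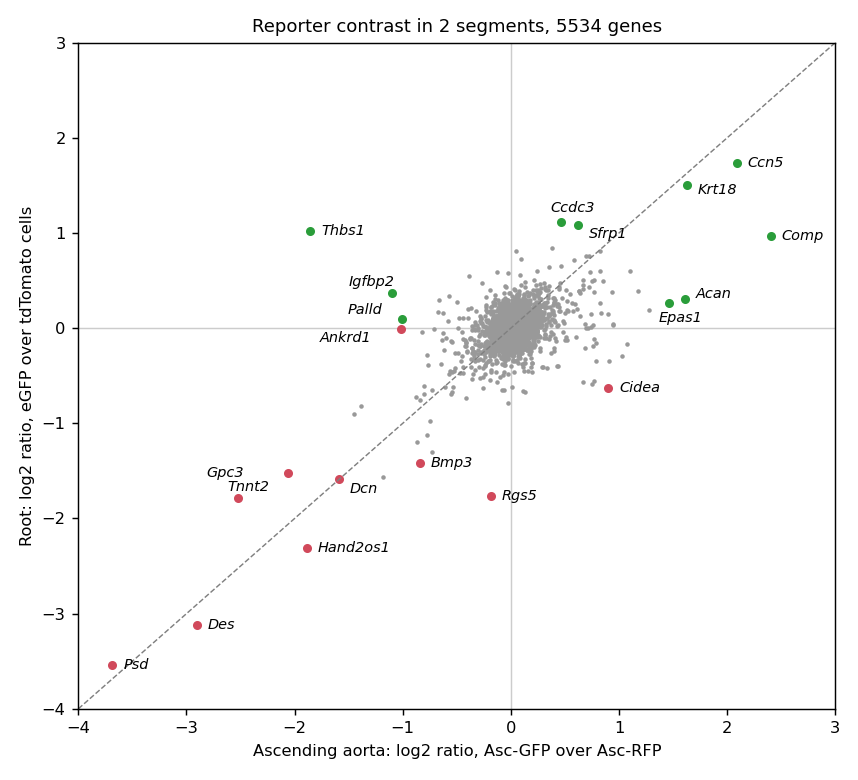
Log2 ratio of GFP over tdTomato levels in the root (vertical) against the ascending aorta (horizontal) for 5534 genes with at least 20 CPM in both segments; Thbs1 and Comp, which are under 20 CPM in the ascending aorta, are added, green and red mark named genes above and below 0 in the root, and the dashed line marks equal ratios. Psd, Des and Hand2os1 lie near the line, and Rgs5 (-1.77 in the root, -0.18 in the ascending aorta, sexes pooled) lies away from it.

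Female and male root cells of the same library gave a partial check, with 475 eGFP and 1587 tdTomato female cells and 64 and 212 male cells. Psd was at 7.40 and 83.2 CPM in female and 2.51 and 48.1 CPM in male cells. Des was at 37.8 and 306 CPM in female and 13.8 and 242 CPM in male cells. The log2 ratio of Tnnt2 was -1.72 in female and -2.20 in male cells, and that of Ccdc3 was 1.03 and 1.32. Of 9695 genes with at least 5 CPM in the root, 13 differed by 2-fold or more in the same direction in both root sexes and both segments. Each of those intervals was beyond 0. Of these 13 genes, 4 were higher (Ccn5, Tfap2a, Nr2f1 and Ephx2) and 9 lower (Psd, Des, Tnnt2, Hand2os1, Gm34030, Gpc3, Unc45b, Pltp and Dlg2). The whole-root ratio was made mostly of the same cells as the female and male root ratios, so these comparisons were not independent. Male Tfap2a in tdTomato cells and male Unc45b in eGFP cells were at 0 UMIs and were set to a floor of 3 counts. Mia and Tcf21 had ratios of that size in all 4 comparisons, but their intervals in male cells, with 1 eGFP UMI each, held 0.

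Thbs1, Lum and other genes did not hold in the same way. Thbs1 was at 21.1 and 16.7 CPM in female eGFP and tdTomato cells, a log2 ratio of 0.34, and at 220 and 73.3 CPM in male cells, a ratio of 1.58. Lum was at 6.63 and 35.4 CPM in female cells but at 13.8 CPM (11 UMIs) and 5.89 CPM (18 UMIs) in male cells, where its ratio of 1.23 had an interval from 0.00 to 2.39. Of the 101 named genes 27 had the opposite sign in male cells, among them Wnt16 (-0.64), Igfbp2 (-1.94), Hoxb3 (0.36), Acan (-0.51), Eln (-0.07), Tnnt1 (-0.06) and Abcc9 (-0.03). Ratios by sex were not adjusted for the expression clusters, over which the sexes were spread unevenly (62.4% female in cluster 5, 84.7% to 95.8% elsewhere).

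**Figure D4:**
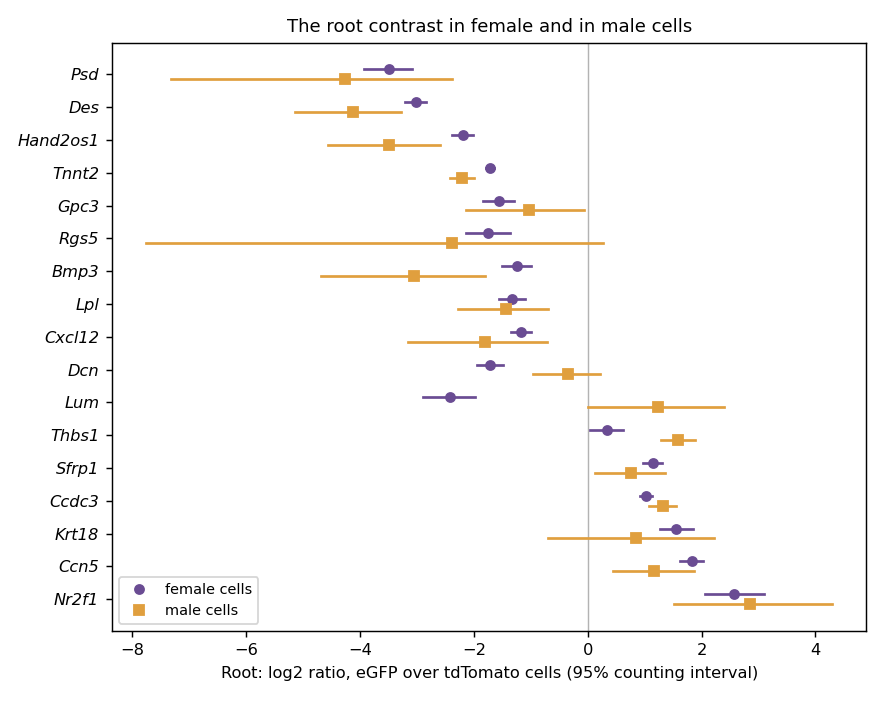
Log2 ratio of eGFP over tdTomato levels in female and in male root cells for 17 genes, with 95% counting intervals. Psd, Des, Hand2os1 and Tnnt2 lie below 0 and Nr2f1, Ccn5 and Ccdc3 above 0 in both sexes, and Lum is at -2.42 in female and 1.23 in male cells.

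The contrast was also taken inside clusters of root cells, formed without the reporters and sex-linked genes. Of 6 clusters, 5 held at least 30 cells of each colour, and ratios within them were computed with 0.5 UMI added. Psd lay between -5.34 and -2.74, Des between -4.16 and -1.49, Hand2os1 between -4.35 and -1.42, and Tnnt2 between -1.56 and -0.73. Tfap2a lay between 3.63 and 6.02, Nr2f1 between 1.99 and 3.06, and Sfrp1 between 0.89 and 1.57. Krt18 lay between 0.49 and 1.69, and Ccn5 between 0.12 (cluster 2, at 16.4 and 15.7 CPM) and 2.50. Comp ranged from -1.08 to 1.63 and Mia from -3.33 to 2.92. The values of -5.34 for Psd, 6.02 for Tfap2a and -3.33 for Mia came from cluster 5. There 1 colour had no UMI of the gene, so the added 0.5 UMI set their size. Lum ranged from -3.76 to 0.00. Thbs1 was at 282 CPM in the eGFP cells and 99 CPM in the tdTomato cells of cluster 5, and at 2.18 and 9.69 CPM in cluster 0. In cluster 4, which held only 22 eGFP and 36 tdTomato cells, all cells together had 398 CPM of Thbs1. Without clusters 2, 4 and 5, the log2 ratio of Thbs1 was -1.54 and that of Tnnt2 -0.99. The clusters were formed with the compared genes left in. Leading genes included Lum, Fst, Mmp3, Fbln1 and Tnnt2 in cluster 2, and Thbs1 and Comp in cluster 4. Leaving out these clusters removes cells high in those genes by construction, so it is no independent check of their ratios. The same limit applies to their ratios within clusters.

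Shares of cells were compared only in a second clustering, added after the data were seen and made without the 342 genes that passed the list rule in the root. In 1 of its 7 clusters, B, led by Vcam1, Igf1 and Igfbp2 and left unnamed, eGFP cells made up 21 of 252 cells of the 2 colours, or 8.33% (5.23 to 12.5%). The share in cluster D was 17.5% (14.3 to 21.1%), and in the other 5 clusters it lay between 23.3% and 38.0%. Cluster B held 3.68% of all eGFP and 12.2% of all tdTomato root cells.

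**Figure D5:**
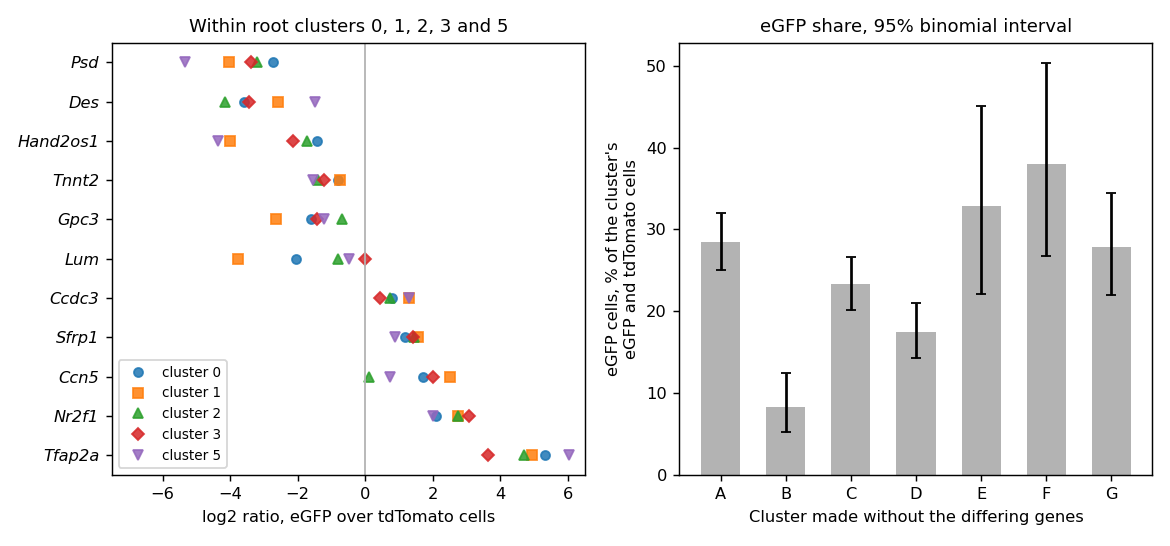
Left, log2 ratio of eGFP over tdTomato levels for 11 genes within root clusters 0, 1, 2, 3 and 5; right, eGFP cells as a share of the eGFP and tdTomato cells in 7 clusters made without the genes that differed, with exact 95% binomial intervals. Psd, Des, Hand2os1, Tnnt2 and Gpc3 lie below 0 in all 5 clusters on the left, and cluster B has the lowest share on the right, 8.33%.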

How the data were processed

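Single-cell 3′ libraries of sorted aortic smooth muscle cells were used as the authors' deposited UMI counts per gene and barcode. Per the file headers the counts came from Cell Ranger 7.0.0, and per the submitters' processing notes the build was mm10 and Seurat 4.3 was used. The reporter groups, gene lists and members were chosen with earlier results of these data known. UMIs were summed over the cells of a group and divided by the group's total, giving CPM with exact Poisson intervals. The log2 ratio of 2 sums had an exact conditional binomial interval, and a sum of 0 was set to 3 counts. A gene was called at a ratio of 2-fold with 20 CPM in either group, the reporters left out.

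Named genes were Ccn5, Krt18, Lum, the 14 highest and 14 lowest at 20 CPM by the interval bound nearest 0, up to 3 from each of 31 lists, and 5 at each end of the difference between segments. A gene outside this rule (Ephx2, Unc45b, Pltp, Dlg2, Hand2 and the level examples) was chosen after its values were seen. Gene positions came from GENCODE M21, to which 32235 of 32287 features matched by identifier. For shares of cells, every cell was thinned to 5000 UMIs (seed 1). Doublets were not called by a tool: an alternative left out cells with both Xist and Y-linked UMIs and the deepest 5%. Clusters used scanpy 1.11.5 (2000 variable genes, 30 components, 15 neighbours, Leiden resolution 0.5). A second clustering, without the 342 genes past the list rule, was added after the data were seen, for the shares of cells. TMM factors came from edgeR 4.0.16, with no edgeR test. On counts simulated for the root comparison, 200 of 200 changed genes of 5660 were called, no unchanged gene was, and 94.6% of intervals held the true value. The changed genes were drawn from levels above the 20 CPM limit and given changes larger than 2-fold, with counting error alone. The simulation therefore cannot speak to smaller changes, lower levels or variation between cells or animals. Counts from 1 library share its handling and ambient RNA, so the intervals cover counting error only.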

Additional observations from a re-analysis of the deposited data

Results flagged for a closer look

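Of the 101 named genes, 11 had opposite directions in female and male root cells with counting intervals beyond 0 in both sexes. The 6 given here also differed by 1.41-fold or more in each sex and reached 20 CPM in the root, and none of these differences was tested. Lum had a log2 ratio of eGFP over tdTomato cells of -2.42 in female and 1.23 in male cells, a difference of -3.65. Igfbp2 was at 0.74 in female and -1.94 in male cells, a difference of 2.68. Corin, the protease that activates atrial natriuretic peptide, was at -1.29 and 0.57, a difference of -1.87, and Pln, the inhibitor of the sarcoplasmic calcium pump, at -0.63 and 0.53, a difference of -1.16. The guidance ligand Sema3c was at 0.50 and -1.27, a difference of 1.77, and Wnt16 at 0.76 and -0.64, a difference of 1.40. The other 5 were Apoe (-0.50 and 0.51), Sema3d (0.49 and -1.42), Id3 (-0.15 and 0.29), Ankrd1 (-0.20 and 0.65) and Palld (-0.12 and 0.38). Male values rest on 64 eGFP cells and, for Sema3c, on 8 eGFP UMIs. The sexes were spread unevenly over the expression clusters. Female cells were 62.4% of the sexed cells in cluster 5 and 84.7% to 95.8% in the other clusters. Within cluster 5, sexes pooled, Corin (0.38), Pln (0.63) and Sema3c (-1.63) had the male sign, as had Wnt16 (8.11 against 34.5 CPM). Lum (-0.47) and Igfbp2 (1.10) had the female sign there. The part of the cluster mix in the differences by sex was not tested.

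Between segments, 21 of the 101 named genes had opposite directions in the root and the ascending aorta with both intervals beyond 0. The first 3 given here also differed by 1.41-fold or more in each segment and reached 20 CPM in 1 of the segments or both, and these differences were not tested either. Thbs1 was at 1.02 in the root and -1.86 in the ascending aorta, a difference of 2.88. Cidea, a lipid droplet protein, was at -0.63 and 0.90, a difference of -1.52, and Cox4i2, the hypoxia-responsive isoform of a cytochrome oxidase subunit, at -0.58 and 0.75, a difference of -1.34. Below that level, Fst was at -1.78 and 0.95 and Igfbp5 at 0.55 and -0.64, and with a smaller ratio in 1 segment, Igfbp2 was at 0.37 and -1.10, Actg2 at 0.54 and -0.39, P2rx1 at -0.66 and 0.41 and Palld at 0.09 and -1.01.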

How the results depend on the processing

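No paired analysis was possible because each group had 1 library, whose number was given in accession order and pairs no samples. Each named gene was recomputed under 19 alternatives. The minimum levels of 10 and 50 CPM are among these and change only which genes are counted, so they could not move a gene's ratio. Of the 18 named root genes with 2-fold differences at 20 CPM or more, 16 kept their sign and 9 kept a 2-fold size under all 19. The counts of root genes moved with the minimum level, to 16 higher and 31 lower at 10 CPM and to 3 higher at 50 CPM, and the ascending counts to 23 higher and 28 lower at 10 CPM and to 5 and 7 at 50 CPM. Male cells alone gave 100 higher and 91 lower root genes from 64 and 212 cells, a setting with few UMIs per gene. Averaging within clusters gave 25 lower. For the difference between segments, 10 CPM gave 12 genes higher in the root and 50 CPM gave 1 lower. Over all settings, 32 of the 101 named genes changed sign at least once, 27 of them in male cells and 14 under some other setting. Among named genes with a 2-fold difference at any level, signs reversed for Lum (1.23) and Mmp3 (0.28) in male cells. They also reversed for Lum (0.25) and Fst (0.12) in cells with at most 1 UMI of Lum and Dcn together. Averaged within clusters the sign reversed for Fst (0.27), and without clusters 2, 4 and 5 for Fst (0.82) and Thbs1 (-1.54). The causes were not tested. Mmp3 and Fst were below 20 CPM and are not among the 18. The limit on Lum and Dcn UMIs caps both genes, so their ratios under it (Dcn -0.31) were largely set by the filter. Fst and Thbs1 were leading genes of clusters 2 and 4, so leaving these out was no independent check of them. The setting without clusters 2, 4 and 5, the second clustering, tdTomato at least 2 UMIs and the settings for the difference between segments were chosen after seeing the data. TMM scaling moved the root ratios by -0.03. Both root groups came from the same library without animal labels, so variation between animals and its part in the root contrast could not be measured. In the ascending aorta, with 1 library for each colour, differences between animals cannot be told from differences between colours. Levels of a few CPM rest on few UMIs.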

Other observations

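Among the 2741 root cells kept, 199 carried neither reporter above its threshold (no tdTomato UMI and at most 2 eGFP UMIs), with a median of 11515 UMIs. Their levels were above both groups, with intervals that did not overlap, for Tnnt2 (1185 CPM, 1140 to 1230), Hand2os1 (205 CPM, 187 to 224), Lum (131 CPM) and Dcn (220 CPM). Des (210 CPM, 192 to 230) and Ccn5 (25.9 CPM, 19.7 to 33.5) lay between the groups, apart from both. Psd (92.3 CPM, 80.3 to 106) overlapped the interval of the tdTomato cells. A further 32 cells had at least 8 eGFP and at least 2 tdTomato UMIs, with a median of 23200 UMIs, and 40 had 3 to 7 eGFP UMIs.

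At least 1 eGFP UMI was found in 30% of the tdTomato cells, whose rule allowed up to 2, and in 52.1% of the 71 macrophage-like root barcodes. Gt(ROSA)26Sor, the transcript of the locus that carries reporters of this kind, was at 26.2 CPM in eGFP and 15.5 CPM in tdTomato cells of the root (log2 ratio 0.76, 0.51 to 1.0), and its ratio was 0.70 in the ascending aorta.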
